A study of Mus musculus with 7 samples.

Results

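Expression of 9 named genes of the oligodendrocyte lineage was followed in RNA-seq libraries of cortical neurons from mouse embryos at E16.5: Olig1, Olig2, Sox10, Sox8, Pdgfra, Cspg4, Nkx2-2, Gpr17 and Cnp. They were chosen by symbol, and all 9 were found by Entrez identifier among the 26286 genes of the count table. Of these, 7 were among the 13681 genes with enough reads to be tested. The study holds 3 wild type and 4 KAT7 mutant libraries, given as separate mice, all male, of the C57BL/6 strain and made from polyA RNA of brain. KAT7 is a histone acetyltransferase. The sources used here do not give the KAT7 allele, the cells in which it acts or the way the neurons were obtained.

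Oligodendrocytes are the cells that wrap axons of the brain and spinal cord in myelin. They arise from precursor cells that depend on the bHLH transcription factors OLIG1 and OLIG2 and the SoxE factors SOX8 and SOX10, divide in response to PDGF through the receptor PDGFRA, and carry the proteoglycan NG2, the product of Cspg4. In the forebrain the first precursors come from ventral progenitors under hedgehog signalling and later ones from dorsal progenitors. Most myelin is made after birth, when Cnp and other myelin genes are switched on at high level.

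The libraries held 8272487 to 8813060 counts. Kat7 itself had a mean of 98.9 ± 3.68 (SD, n = 3) in wild type and 0.598 ± 0.42 (SD, n = 4) in KAT7 mutant libraries, in CPM, which are counts scaled to the TMM-adjusted library size. Genes that mark cortical neurons were abundant in both genotypes: the 10 listed genes, among them Tubb3, Dcx and Neurod6, summed to 9792 to 10481 CPM in wild type and 9576 to 10331 CPM in KAT7 mutant libraries. By contrast, the 7 precursor genes among the members summed to 13.2 to 18.1 CPM in wild type and 20.4 to 36.7 CPM in mutant libraries, and each member rests on few reads.

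Precursor genes split into those that rose and those that were not called, and Cnp, the only myelin gene among the members, fell. Of 17 other listed myelin genes 3 were tested and 0 were called. The transcription factor genes Olig1, Olig2 and Sox10 and the receptor gene Pdgfra rose in KAT7 mutant libraries by 2.90-fold, 3.19-fold, 3.66-fold and 2.11-fold. Cnp fell, to 0.555 of the wild type level. Sox8 and Cspg4 were not called, and Nkx2-2 and Gpr17 had too few reads to be tested. In counts, 4 of the 7 tested members were higher and 1 was lower, where 28.9% of all tested genes were called, 13.1% higher and 15.8% lower, by the edgeR quasi-likelihood test at an adjusted p under 0.05. The 7 tested members had a median log2 fold change of 1.07, against 0.0025 over all genes tested. Without mutant replicate 2, 3 or 4 Sox10 was no longer tested, and the median of the other 6 was 0.58, 0.37 and 0.56. Sox10 passed the filter on low counts only through mutant libraries, so it had to be higher there to be tested. In a bulk sample, more cells of a type and more RNA per cell cannot be told apart.

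**Figure D1:**
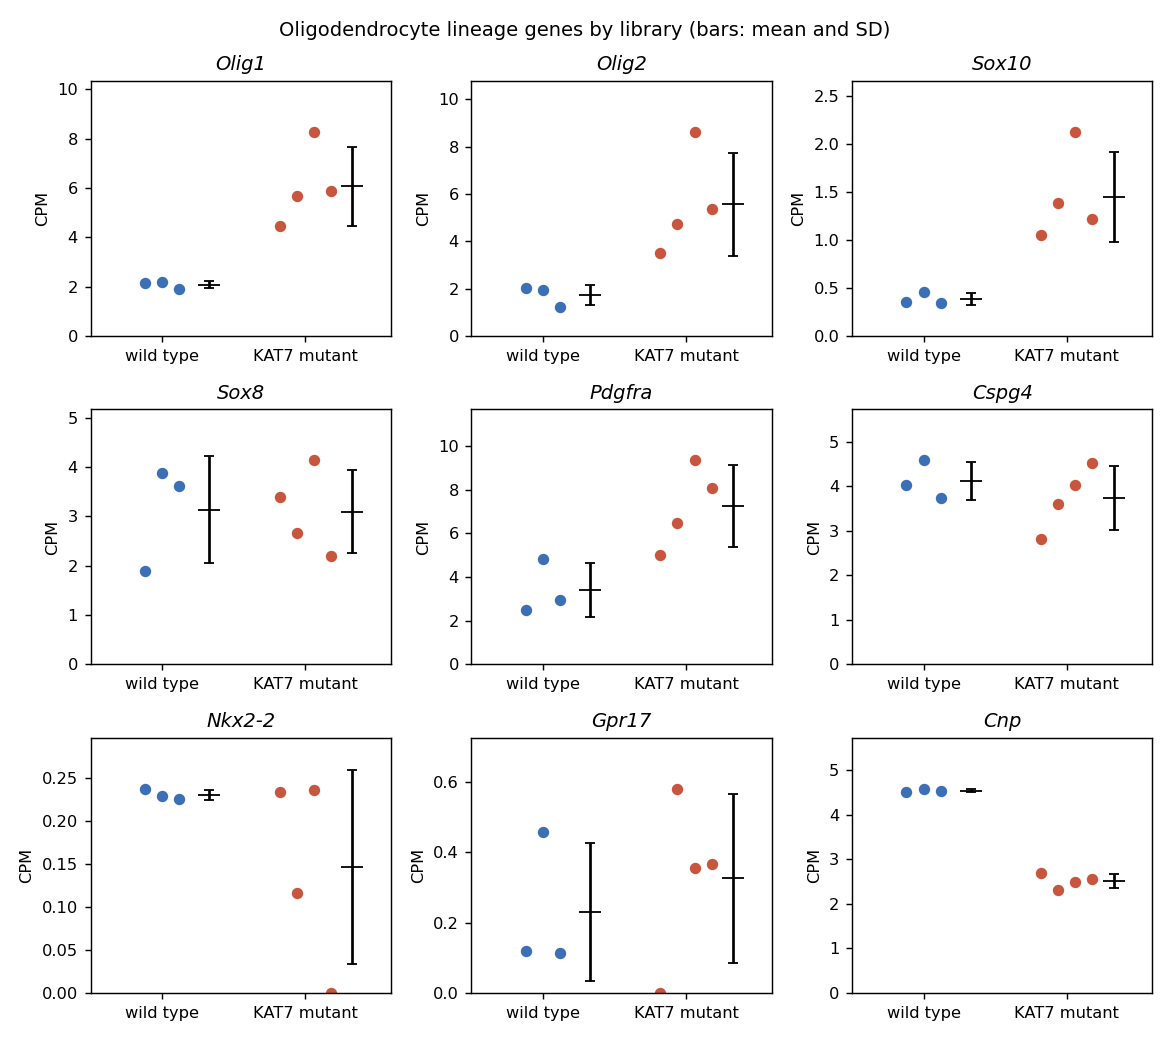
CPM of each of the 9 genes in the 3 wild type (blue) and 4 KAT7 mutant (red) libraries, 1 point per library, with the mean and SD as bars; each panel has its own axis from 0. The genotypes are separate for Olig1, Olig2, Sox10, Pdgfra and Cnp, and they overlap for Sox8, Cspg4, Nkx2-2 and Gpr17.

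Olig1 and Olig2 encode the paired bHLH factors that mark the lineage from its progenitors on. Olig1 stood at 2.14, 2.17 and 1.92 CPM in wild type replicates 1 to 3 and at 4.44, 5.68, 8.27 and 5.87 CPM in KAT7 mutant replicates 1 to 4. Olig2 stood at 2.02, 1.95 and 1.24 CPM in wild type and at 3.51, 4.75, 8.62 and 5.38 CPM in mutant libraries. For both genes every mutant library lay above every wild type library, and mutant replicate 3 was the highest. The log2 fold change was 1.54 ± 0.24 (SE) for Olig1, with an edgeR adjusted p of 4.9e-05. For Olig2 it was 1.67 ± 0.30 (SE), with an edgeR adjusted p of 0.00024. Genotypes without overlap were found for 35.3% of all tested genes. Without mutant replicate 3 the values were 1.35 for Olig1 and 1.38 for Olig2, and both were still called.

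Sox10 encodes the SoxE factor that precursors need to differentiate and that activates myelin genes. Wild type replicates 1 to 3 held 3, 4 and 3 counts of it, and mutant replicates 1 to 4 held 9, 12, 18 and 10. Mutant replicate 3 was again the highest and no library of 1 genotype reached those of the other. In CPM it rose from 0.384 ± 0.064 (SD, n = 3) to 1.45 ± 0.473 (SD, n = 4), or by 1.87 ± 0.44 (SE) on the log2 scale (edgeR adjusted p = 0.0027). Over the summed 10 and 49 counts the ratio was 3.77, with a 95% exact binomial interval of 1.88 to 8.34 that covers counting error only. Sox8, its SoxE relative, was not called. It had 1.90, 3.89 and 3.62 CPM in wild type and 3.39, 2.67, 4.13 and 2.20 CPM in mutant libraries, with ranges that overlapped. Its log2 fold change was -0.02 ± 0.27 (SE), and its summed counts gave a ratio of 0.984 with an interval of 0.730 to 1.33. That sign turned with the libraries and tools used. The difference between Sox10 and Sox8 in response was not tested.

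Pdgfra, the receptor through which PDGF drives precursor division, had 2.49, 4.81 and 2.94 CPM in wild type and 5.02, 6.49, 9.33 and 8.07 CPM in mutant libraries. The highest wild type library, replicate 2, came close to the lowest mutant library, replicate 1. The log2 fold change was 1.07 ± 0.24 (SE), with an edgeR adjusted p of 0.0016. It was 0.89 without wild type replicate 1 and 1.40 without wild type replicate 2, and Pdgfra was called in both. Cspg4, which encodes the NG2 proteoglycan of precursors and also of pericytes, had 4.04, 4.58 and 3.73 CPM in wild type and 2.80, 3.59, 4.02 and 4.52 CPM in mutant libraries. These ranges overlapped, with a log2 fold change of -0.14 ± 0.20 (SE) and an edgeR adjusted p of 0.64. Its summed counts gave a ratio of 0.905 (95% exact binomial interval 0.694 to 1.18).

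Nkx2-2, a homeobox gene of precursors that are about to differentiate, had 2 counts in each wild type library and 2, 1, 2 and 0 in mutant replicates 1 to 4. Gpr17 encodes a receptor of committed precursors that have not yet made myelin. It had 1, 4 and 1 counts in wild type and 0, 5, 3 and 3 in mutant libraries. At this depth a count of 0 allows up to 0.339 to 0.367 CPM in a library, and no difference was detectable for either gene. The ratios of summed counts were 0.640 (95% exact binomial interval 0.155 to 2.52) for Nkx2-2 and 1.41 (0.478 to 4.64) for Gpr17. In RefSeq Gpr17 overlaps Lims2, and because the strand setting of the counting is not given, reads of the pair may not be separable. The same limit holds for Nkx2-2, which overlaps Nkx2-2os and 6430503K07Rik, for Olig2 (Gm52261) and for Pdgfra (Mir7025). Overlap was taken over whole gene spans, introns included.

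Cnp encodes a phosphodiesterase of the cytoplasmic loops of myelin and is among the first myelin genes that differentiating cells switch on. It had 4.51, 4.58 and 4.53 CPM in wild type and 2.69, 2.32, 2.48 and 2.57 CPM in mutant libraries. The sets did not overlap. Per library Cnp had 38, 40 and 40 counts in wild type and 23, 20, 21 and 21 in mutant libraries. At such counts the close agreement within a genotype is not a measure of precision. Over the summed 118 and 85 counts the ratio was 0.554 (95% exact binomial interval 0.414 to 0.738, counting error only). The log2 fold change was -0.85 ± 0.19 (SE), with an edgeR adjusted p of 0.0024. In RefSeq Cnp overlaps Dnajc7, a chaperone gene with a wild type mean of 232 CPM that rose by 0.17 on the log2 scale (edgeR adjusted p = 0.014). How overlapping reads were counted is unknown from the sources used here, and the part of Dnajc7 reads in the Cnp values was not tested.

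Per length the order of the members differed between the genotypes. In wild type, Cnp had the highest level, 1.69 ± 0.0128 CPM per kb (SD, n = 3), followed by Sox8 at 1.05 ± 0.36, Olig1 at 0.957 ± 0.0624 and Olig2 at 0.712 ± 0.175 CPM per kb. Cspg4 at 0.511 and Pdgfra at 0.507 CPM per kb came next, then Sox10 at 0.142, Nkx2-2 at 0.0943 and Gpr17 at 0.0443 CPM per kb. In KAT7 mutant libraries Olig1 came first at 2.79 ± 0.737 CPM per kb (SD, n = 4) and Olig2 second at 2.28 ± 0.896, and Pdgfra, Sox8 and Cnp lay together at 1.07, 1.03 and 0.939 CPM per kb. Sox10 at 0.534 and Cspg4 at 0.464 CPM per kb followed, and Gpr17 and Nkx2-2 were last at 0.0626 and 0.0598 CPM per kb. Within 1 SD, Sox8 could not be ordered against Olig1 or Olig2 in wild type, nor Sox8 against Pdgfra, nor Olig2, Cspg4 and Pdgfra against each other. The same held in mutant libraries for Olig1 against Olig2, for Pdgfra, Sox8 and Cnp, for Sox10 against Cspg4 and for Gpr17 against Nkx2-2. With few counts the SD can fall below counting error, as for Nkx2-2 with 2 counts in each wild type library. Nkx2-2 (6 summed counts) could therefore not be ordered against Sox10 (10) or Gpr17 (6) in wild type.

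**Figure D2:**
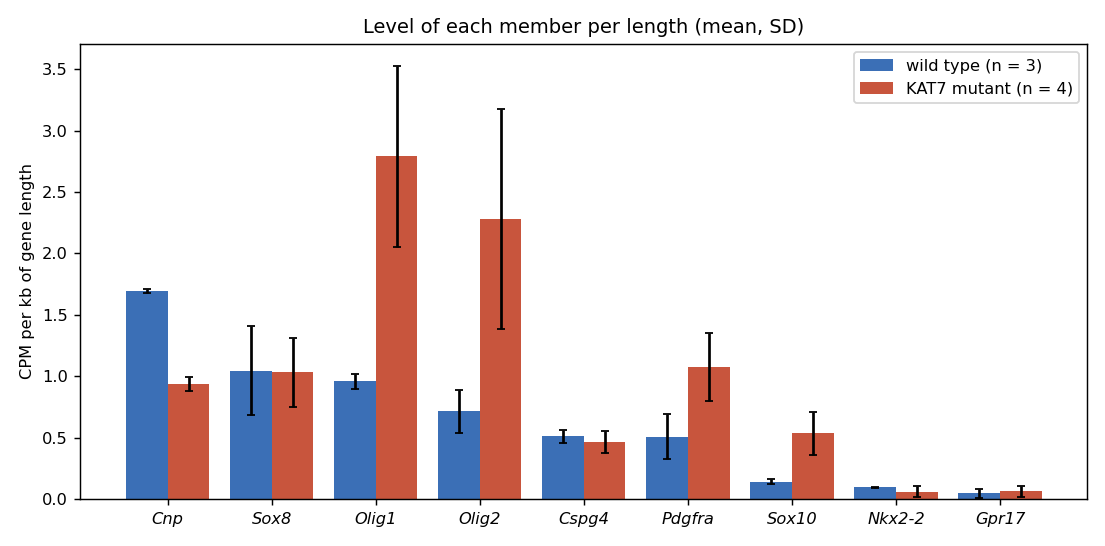
Mean CPM per kb of deposited gene length for the 9 genes in wild type (blue, n = 3) and KAT7 mutant (red, n = 4) libraries, ordered by the wild type level; error bars are the SD. Cnp leads in wild type at 1.69 CPM per kb and Olig1 in KAT7 mutant at 2.79 CPM per kb.

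With each genotype's mean subtracted, log2 CPM of Olig1 and Olig2 had a Pearson correlation of 0.95 over the 7 libraries, Olig1 and Sox10 one of 0.93, and Pdgfra one of 0.70 with Olig1 and 0.76 with Sox10. Cspg4, which was not called, had 0.68 with Olig1, 0.70 with Olig2 and 0.79 with Pdgfra, and so was as close to them as Pdgfra was to Olig1. Sox8 had 0.20 with Olig1, and Cnp had -0.41 with Olig1 and -0.16 with Pdgfra. These describe 7 libraries that share their depth and preparation, in which mutant replicate 3 lay highest (0.59 above the mutant mean of the Olig1 and Olig2 profile, in log2 CPM) and mutant replicate 1 lowest (-0.50). Of 10848 other genes with a mean of at least 5 CPM, those most like that profile were Kansl1l (r = 0.986), Npas3 (0.986), Lrrn3 (0.983), Socs4 (0.981) and Gm10193 (0.980). With this many genes and 7 libraries such values are a ranking only. Of these 5 genes Lrrn3 fell, by 0.33 on the log2 scale, and the other 4 were not called, although Npas3 was called higher without mutant replicate 1 (0.38, edgeR adjusted p = 0.042).

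**Figure D3:**
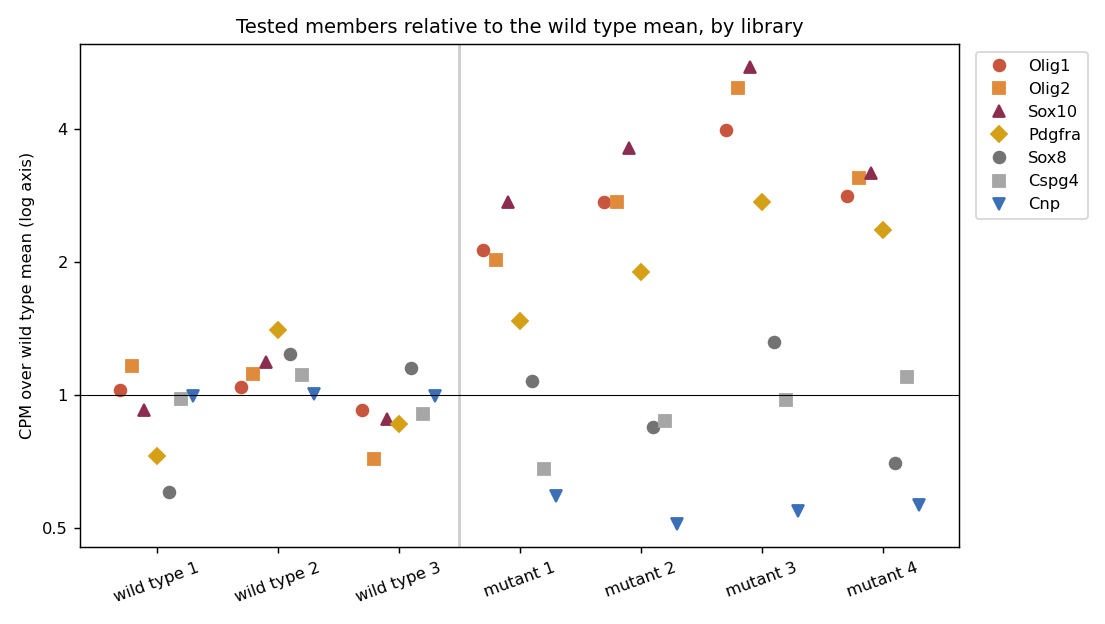
Level of the 7 tested genes in each library as CPM over the gene's wild type mean, on a log axis; points are single libraries. In the mutant libraries Olig1, Olig2, Sox10 and Pdgfra all lie above 1 and are highest in replicate 3, Cnp lies below 1, and Sox8 and Cspg4 lie on both sides of 1.

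Olig1 and Olig2 are neighbours in the genome, with 1 other gene of the RefSeq table between them. The nearest tested named gene beyond Olig1 was Ifnar2, an interferon receptor gene, which was not called (log2 fold change 0.04 ± 0.07, SE). Beyond Olig2 it was Paxbp1, which rose by 0.45 ± 0.06 (SE, edgeR adjusted p = 7.7e-06). Around Sox10, Polr2f and Pick1 were not called, at -0.0017 and -0.17. The sign of Polr2f turned in some refits, and Pick1 was called lower without mutant replicate 1 (-0.29, edgeR adjusted p = 0.0079). Around Pdgfra, Chic2 was not called at 0.21 and Kit, another receptor tyrosine kinase gene, rose by 0.36 ± 0.09 (SE, edgeR adjusted p = 0.0037). Paxbp1 rose by less than Olig2 and Kit by less than Pdgfra, each with 4 other genes of the RefSeq table in between. Whether neighbours and members moved together was not tested.

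Promoter sequences were in the RefSeq table for 6 of the 9 members. The 250 bases before the start site follow for 2 genes that rose, Olig2 and Pdgfra, and for Cnp, which fell, as the sequences whose transcripts moved in opposite directions (RefSeq, build GRCm38.p6, plus strand, 5′ to 3′). Capitals mark the E-box CANNTG, the core to which bHLH factors such as OLIG1 and OLIG2 bind, and ACAAAG or its complement CTTTGT, a core bound by SOX factors, both searched on both strands.
Olig2, chr16:91225300-91225549: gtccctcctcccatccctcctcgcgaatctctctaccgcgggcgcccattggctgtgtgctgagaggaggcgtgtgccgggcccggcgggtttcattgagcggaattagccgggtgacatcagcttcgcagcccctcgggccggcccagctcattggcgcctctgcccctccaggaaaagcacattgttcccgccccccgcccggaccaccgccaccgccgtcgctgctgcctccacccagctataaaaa
Pdgfra, chr5:75152001-75152250: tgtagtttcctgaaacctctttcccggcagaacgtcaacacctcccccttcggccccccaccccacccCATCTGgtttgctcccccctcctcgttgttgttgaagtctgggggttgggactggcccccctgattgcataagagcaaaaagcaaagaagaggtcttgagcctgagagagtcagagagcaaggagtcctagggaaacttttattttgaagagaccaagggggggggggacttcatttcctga
Cnp, chr11:100574689-100574938: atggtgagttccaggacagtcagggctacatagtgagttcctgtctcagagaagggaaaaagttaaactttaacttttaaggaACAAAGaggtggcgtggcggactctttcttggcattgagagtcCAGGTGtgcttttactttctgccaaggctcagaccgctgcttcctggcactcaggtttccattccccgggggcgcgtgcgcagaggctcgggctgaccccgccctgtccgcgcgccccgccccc

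The Olig2 window held neither motif and had a GC content of 66.8%. The Pdgfra window held 1 E-box, which begins 182 bases before the start, and no SOX core. The Cnp window held both, an E-box that begins 124 bases and a SOX core that begins 167 bases before the start, and the 2 do not overlap. Of the 32851 windows of this length in the table, 66.2% held CANNTG and 16.46% held ACAAAG or CTTTGT, so the E-box is the usual case and its presence does not set these promoters apart.

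Other precursor genes did not move as one. Of 13 listed genes 11 were tested, 4 rose, 2 fell and 5 were not called, with a median log2 fold change of -0.14. Over all tested genes 13.1% were called higher and 15.8% lower, the shares to set beside this and each later list count. The list summed to 439 to 461 CPM in wild type libraries, where the precursor members summed to 13.2 to 18.1 CPM. Vcan, Cacng4, Cspg5 and Tnr made up most of it, at wild type means of 214, 76.9, 65.4 and 43.8 CPM. Which cells gave these reads was not tested, so the list is not a measure of precursors alone. Ednrb, the endothelin receptor of precursors and other glia, rose from 9.14, 11.1 and 9.50 to 15.8, 19.5, 31.0 and 18.7 CPM (log2 fold change 1.10 ± 0.18, SE). The genotypes did not overlap, and mutant replicate 3 was the highest, as for the members that rose. Tnr, which encodes the matrix protein tenascin-R, fell by 0.91 ± 0.08 (SE) on the log2 scale. C1ql1, a complement-like secreted protein gene, fell by 1.23 ± 0.40, but it passed the filter only through wild type libraries. It was not called by DESeq2 (adjusted p = 0.13), and it lost its edgeR call without wild type replicate 2 or 3 or mutant replicate 1 or 3 (adjusted p = 0.054 to 0.081). Only 1 gene of the list, Tnr, fell in those fits. The list median was -0.02 without wild type replicate 1, -0.01 without wild type replicate 2 and 0.09 without mutant replicate 2.

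Of 10 listed genes of differentiating cells, 4 had enough reads to be tested, 1 rose and 0 fell, with a median of 0.11. The most abundant of them, Zfp536 and Tns3, were not called, at 19.5 and 10.8 CPM in wild type and 20.9 and 11.7 CPM in mutant libraries. The one that rose was Bcas1, a gene of newly formed oligodendrocytes, at 0.475, 0.458 and 0.566 CPM in wild type and 2.10, 1.39, 1.65 and 1.47 CPM in mutant libraries (log2 fold change 1.70 ± 0.37, SE, edgeR adjusted p = 0.0018). It passed the filter only through mutant libraries. In RefSeq Bcas1 overlaps Bcas1os2, and with the strand setting not given, reads of the pair may not be separable. Myrf, the transcription factor gene that starts the myelin programme, was below the filter and was singled out after its values were seen. It had 10, 3 and 5 counts in wild type and 1, 1, 0 and 1 in mutant libraries, a ratio of 0.128 (95% exact binomial interval 0.0242 to 0.439), and without a filter edgeR called it lower (adjusted p = 0.0037). Bcas1 and Myrf differed in direction, each on few reads. Bcas1 had to be higher in mutant libraries to be tested, and Myrf was picked by its values, so no contrast is drawn from them.

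Myelin genes other than Cnp gave no call. Of 17 listed, 3 had enough reads to be tested, 0 rose and 0 fell, with a median of -0.03, while 11 of the 17 had under 10 counts over all libraries together and 2, Opalin and Aspa, had 0. Mbp, which encodes myelin basic protein and whose locus also gives non-myelin transcripts in other cells, had a log2 fold change of -0.03 ± 0.11 (SE), from 15.4 to 15.1 CPM. Mog, a gene of the outer myelin surface, had -0.34 ± 0.14 (SE, edgeR adjusted p = 0.064), and was called lower without wild type replicate 3 (-0.47, adjusted p = 0.018). In edgeR 2 of the 3 tested genes had an unadjusted p under 0.05, and DESeq2 called 0. With 1 library left out, edgeR called 0 or 1 gene of the list in either direction. The fall of Cnp was thus not accompanied by a called fall of Mbp or Mog, and the difference between Cnp and these genes was not tested.

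**Figure D4:**
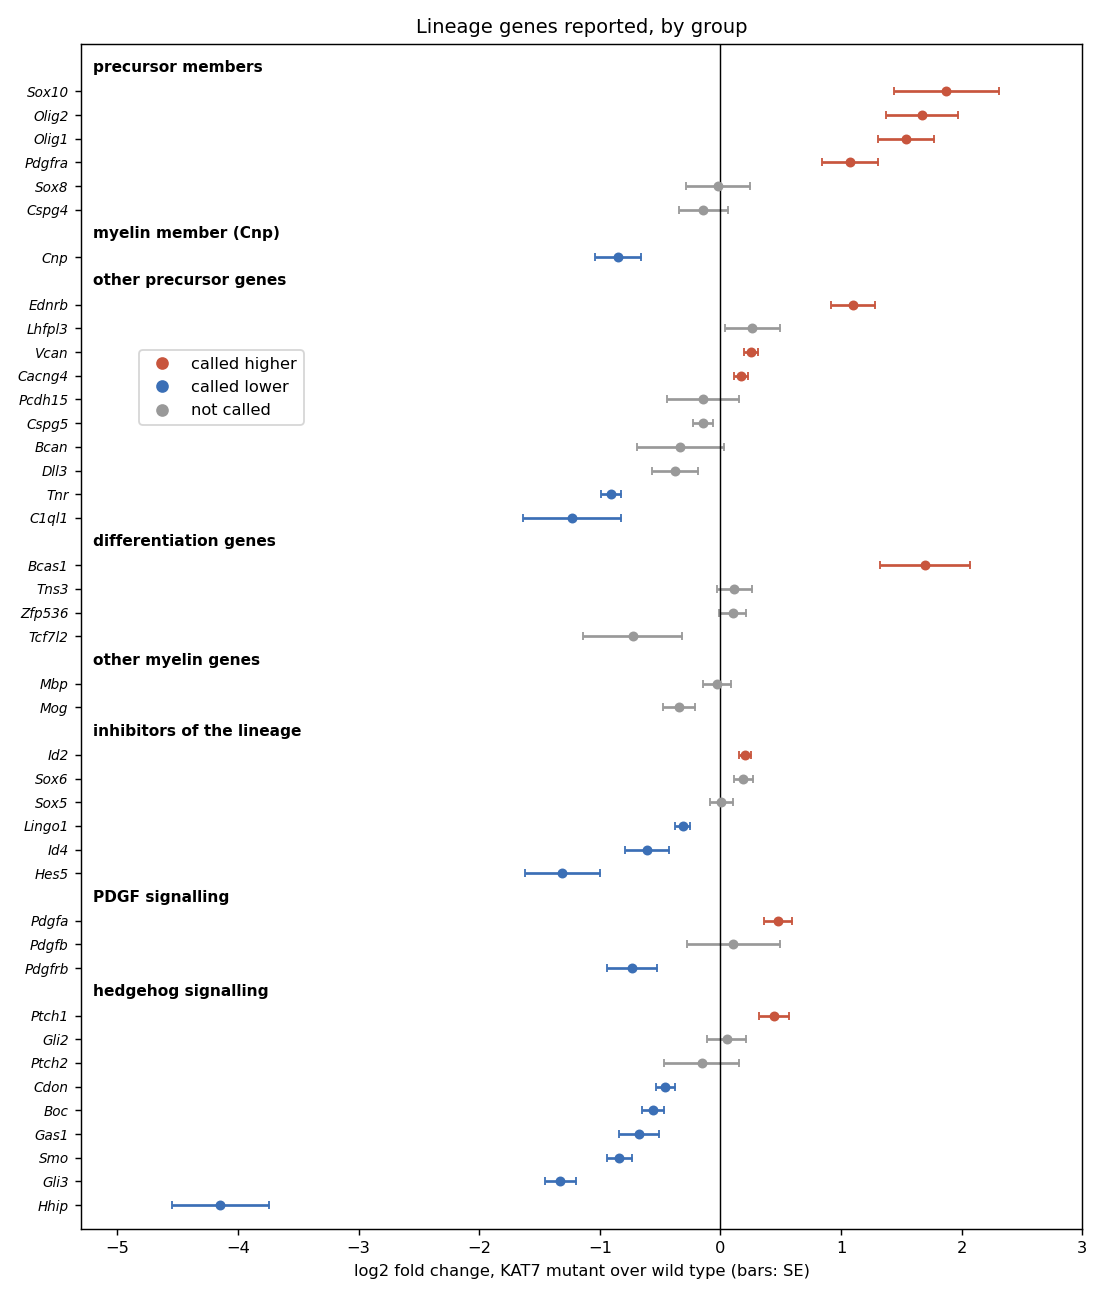
Log2 fold change of KAT7 mutant over wild type with its SE for the tested genes reported here of each lineage group; red, called higher; blue, called lower; grey, not called, by the edgeR test at an adjusted p under 0.05. The 4 called precursor members lie between 1.07 and 1.87, Cnp lies at -0.85, and the other precursor genes spread from -1.23 to 1.10.

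Genes that act on the lineage were called in both directions. PDGF-A, the main mitogen of precursors and a ligand of PDGFRA, is encoded by Pdgfa, which rose from 11.6 to 16.1 CPM (log2 fold change 0.48 ± 0.12, SE, edgeR adjusted p = 0.0042). Pdgfrb, the other PDGF receptor gene, fell by 0.73 ± 0.21 (SE). Of the 5 PDGF genes 3 were tested, 1 rose and 1 fell, with a median of 0.11, which was 0.41 without wild type replicate 3 and -0.19 without mutant replicate 3. Hedgehog pathway genes fell in 6 of 9 tested, with 1 rise and a median of -0.56, where 15.8% of all tested genes fell and 13.1% rose. Hhip, a hedgehog-binding inhibitor, fell by 4.15 (passing the filter only through wild type libraries), the transcription factor gene Gli3 by 1.33, the signal transducer gene Smo by 0.84 and the co-receptor gene Gas1 by 0.68 on the log2 scale. The rise was that of the receptor gene Ptch1 (0.45 ± 0.12), which was 0.38 and no longer called when wild type replicate 1 was left out (edgeR adjusted p = 0.053). Shh itself had 1 to 3 counts per library and was not tested.

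Of 7 genes that hold the lineage back or delay its differentiation, 6 were tested, 1 rose and 3 fell, with a median of -0.15. Hes5, a Notch target gene, fell by 1.31 ± 0.31 (SE), from 2.88 to 1.16 CPM. Id4, an inhibitor of bHLH factors, had a log2 fold change of -0.61 ± 0.18 (edgeR adjusted p = 0.017) and lost its call without wild type replicate 2 or 3 or mutant replicate 2 (adjusted p = 0.11, 0.099 and 0.056) and in the robust edgeR fit (0.086). Lingo1, a membrane protein that restrains myelination, fell by 0.31 ± 0.06. Id2, a relative of Id4, rose by 0.20 ± 0.05, from 394 to 454 CPM.

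Several members are also expressed by other cells that a cortical sample can hold, so markers of those cells were measured beside them. Pericytes share Cspg4: their 8 listed genes summed to 12.9 to 14.0 CPM in wild type and 7.48 to 11.0 CPM in mutant libraries, and both tested genes, Pdgfrb and Notch3 (-0.55 ± 0.18, SE), fell. Notch3 lost its call without wild type replicate 2 or 3 or mutant replicate 2 or 4 (edgeR adjusted p = 0.057 to 0.086) and in DESeq2 (adjusted p = 0.095). Pdgfrb was then the only pericyte gene called, except that Rgs5 also fell without wild type replicate 3. Of the 6 pericyte genes below the filter, Abcc9 and Vtn had 1 or 2 counts per library, Kcnj8 0 to 2 and Higd1b 0 or 1. Rgs5 had 15, 16 and 5 counts in wild type and 4, 10, 5 and 3 in mutant libraries. Anpep leaned the other way, with 1, 2 and 1 counts in wild type and 2, 7, 4 and 2 in mutant libraries. Fibroblasts share Pdgfra: their 6 genes summed to 5.95 to 7.84 and 5.75 to 7.09 CPM, and of the 2 tested, Col3a1 and Col1a1, 0 were called (0.07 ± 0.25 and 0.26 ± 0.30), 0 had an unadjusted p under 0.05 in edgeR and DESeq2 called 0. Dcn, below the filter, was tested and called lower without wild type replicate 3 (-2.05, edgeR adjusted p = 0.0053). Neural crest and Schwann cells share Sox10: their 7 genes summed to 9.04 to 11.2 and 10.1 to 13.1 CPM, and of 2 tested Ngfr rose by 0.96 ± 0.28, a call lost without wild type replicate 1 or 2 (edgeR adjusted p = 0.073 and 0.071). Their defining gene Foxd3 had 1 count in all libraries together. The part of these cells in the members' values was not tested further.

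Some markers of ventral cells and of microglia rose beside the precursor genes, and some of astrocytes fell. Over all tested genes 13.1% were called higher and 15.8% lower. The 10 ventral telencephalon genes summed to 186 to 274 CPM in wild type and 256 to 355 CPM in mutant libraries. Of 7 tested, 4 rose and 0 fell, with a median of 0.52, among them Gad2 (0.76 ± 0.11) and Dlx2 (0.52 ± 0.12). Gad1 stood at 0.70 ± 0.15 but lost its call in DESeq2 (adjusted p = 0.052) and in the robust edgeR fit (0.12). Dlx5 stood at 0.55 ± 0.18 and lost its call without wild type replicate 2 or 3 or mutant replicate 1 (edgeR adjusted p = 0.14, 0.078 and 0.096). Lhx6, the most abundant ventral gene, was not called at 0.03 ± 0.09, nor were Dlx1 (0.38 ± 0.19) and Dlx6 (0.26 ± 0.19). Nkx2-1 and Gsx2, the defining progenitor genes of that region, had at most 7 counts in any library. Microglia genes summed to 18.9 to 21.7 and 28.8 to 38.6 CPM. Of 7 tested, 4 rose and 0 fell, with a median of 0.63, including Csf1r (1.05 ± 0.20) and C1qb (0.71 ± 0.18). Cx3cr1 (0.58 ± 0.23), Tyrobp (0.30 ± 0.26) and Aif1 (0.23 ± 0.32) were not called. C1qa and C1qc (both 0.63) lost their call in DESeq2 (adjusted p = 0.11 and 0.085) and without wild type replicate 1 or mutant replicate 3 or 4, which left 2 genes that rose. C1qa also lost it without wild type replicate 2 or mutant replicate 1, and C1qc without wild type replicate 3. Astrocyte genes summed to 212 to 223 and 165 to 200 CPM, and 5 of 7 tested fell and 0 rose, with a median of -0.51: Gfap by 1.70, Aldoc by 0.97, Gja1 by 0.83 and Slc1a3 by 0.51 among the largest. Slc1a2, the most abundant astrocyte gene, was not called at 0.02 ± 0.07, nor was Aldh1l1 at 0.54 ± 0.31 (1.58 and 2.31 CPM). The part of a change in cell makeup in the members' values was not tested.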

How the data were processed

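Libraries were polyA RNA-seq of E16.5 mouse cortical neurons, 3 wild type and 4 KAT7 mutant. The authors deposited whole-number read counts per gene, with Entrez identifiers and gene lengths. Counts came from featureCounts with mm9, per the submitters' processing notes. The sources used here do not give the aligner, annotation release or strand setting. Symbols were matched through a RefSeq table of GRCm38.p6 (24176 of 26286 identifiers), used for names, neighbours and gene overlaps only. Promoter sequences are from RefSeq for the same build. The deposited gene length, taken as bases, gave CPM per kb.

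Genes were filtered with filterByExpr (minimum count 10, here 1.17 CPM in 3 libraries), scaled by TMM and tested by edgeR 4.0.16 quasi-likelihood F tests (R 4.3.3), two-sided, with genotype as the only term and Benjamini-Hochberg adjustment over all 13681 tested genes. A call is an adjusted p under 0.05. The SE was the log2 fold change divided by the root of the F statistic. The fit was tested on simulated counts. Exact binomial intervals cover counting error only. Replicate pairs differed by more than counting noise (chi-square per gene 1.98 to 3.47), and p-values measure the spread between mice. Alternatives used DESeq2 1.42.0, limma 3.58.1 and other edgeR settings.

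Members and lists were chosen with earlier results of these data known. Beyond the members, named genes were the up to 4 called genes per list with the largest change and a mean of at least 1 CPM in a genotype, or the 2 most abundant where none was called, the 5 genes most like the Olig1 and Olig2 profile, and the nearest tested named neighbours. Other names (list genes given for their counts or for having no call, overlapping genes, Ptch1, Rgs5, Dcn, Shh and Myrf) were added after values were seen. Some items are not reported here.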

Additional observations from a re-analysis of the deposited data

Results flagged for a closer look

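In 4 of 58 genes examined, the highest of the 4 KAT7 mutant libraries stood apart from the other mutant libraries by a gap that exceeded the 95% critical value of Dixon's test, where chance gives about 1 in 20. None of the 4 was among the 9 oligodendrocyte lineage genes. Kat7 reached 1.22 CPM in mutant replicate 4, against 0.351 to 0.464 CPM in the others. The remaining 3 were highest in mutant replicate 3, the library that was also highest for Olig1, Olig2, Sox10 and Pdgfra. The astrocyte gene Gfap reached 3.66 CPM there (1.64 to 1.97 CPM in the others), the gap junction gene Gja1 4.02 CPM (3.04 to 3.13 CPM) and Notch3 5.32 CPM (3.71 to 3.97 CPM).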

How the results depend on the processing

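Of the 7 tested members, Olig1, Olig2, Pdgfra and Cnp kept their direction and call in all 18 alternatives, with log2 fold changes of 1.35 to 1.66, 1.38 to 1.84, 0.89 to 1.40 and -0.89 to -0.81. Sox10 fell below the count filter without mutant replicate 2, 3 or 4, because fewer samples then passed the minimum. It was called in the other 15 alternatives and, in fits chosen after seeing the data, without a filter and without each mutant replicate (1.63 to 2.00). With 6 members tested, the members' median was 0.37 to 0.58 without mutant replicate 2, 3 or 4, and 0.37 to 1.40 over all libraries left out. Sox8 was never called and changed sign with limma-voom (0.0044), the replicate block (0.12) and libraries left out (-0.28 to 0.16); Cspg4 was never called. Without a count filter all 9 members were fitted, and the same 4 rose and Cnp fell.

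Replicate numbers did not pair the samples: deviations of same-numbered libraries correlated at 0.0132, 0.0126 and -0.025. With the replicate number as a block, 1460 genes rose and 1943 fell (1793 and 2163 without), 1 myelin gene fell (Mog, adjusted p = 0.049), and 1 other precursor and 1 pericyte gene fell. An adjusted p under 0.01 gave 1034 rises over all genes, 1 fall of other precursor genes, 0 of PDGF and 0 of pericyte genes, 0 rises of neural crest and 2 of microglia genes. DESeq2 gave 1 fall of other precursor, 1 fall of pericyte and 2 rises of microglia genes. Without a count filter 1 differentiation gene (Myrf) and 1 fibroblast gene (Dcn) fell, as did Dcn (1 gene) at a CPM of at least 1 in 3 libraries.

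With 1 library left out, falls of other precursor genes were 1 to 2 (median -0.23 to 0.088), myelin rises 0 to 1 and falls 0 to 1, hedgehog rises 0 to 1, neural crest rises 0 to 1 (median 0.28 to 0.62), microglia rises 2 to 4, pericyte falls 1 to 2 and fibroblast falls 0 to 1. The PDGF median was -0.19 to 0.41 and the neuron median 0.031 to 0.096. Among other named genes, signs turned for Polr2f (0.0020 with RLE factors, 0.0016 in DESeq2, 0.046 with the block, -0.081 to 0.058 with libraries left out), Mbp (-0.10 to 0.017), Socs4 (-0.090 to 0.10) and Col3a1 (-0.037 to 0.23). The causes were not tested. Low read numbers limit Sox10, Nkx2-2 and Gpr17 most.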
